A study of Mus musculus with 10 samples.

Results

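A set of 10 genes for immune checkpoint ligands and immunosuppressive enzymes was followed in mouse prostate cells with and without a deletion of Arid1a, which belongs to the SWI/SNF complex that remodels chromatin. They were chosen by symbol for what they encode: Cd274, Pdcd1lg2, Cd80, Cd86, Lgals9, Ido1, Arg1, Nos2, Entpd1 and Nt5e. These are 10 of the 48897 rows of each table, and all 10 symbols were found in both tables.

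The study asked how loss of Arid1a shapes the immunosuppressive surroundings of prostate tumours. Prostate epithelium was sorted as EpCAM+; CD45- cells from 3-month-old C57BL/6 mice. The control group held 3 libraries (A, B and C) whose genotype names no Arid1a deletion, and the other group held 3 libraries whose genotype adds Arid1aPC-/-, here called the libraries labelled Arid1a KO. Deletion was made in prostate epithelium with Cre under the Probasin promoter. The mice of both groups were genetically engineered, so the controls are not wild type. Myc-CaP, a line from a prostate tumour of a Myc-transgenic FVB mouse, gave 2 libraries with an empty vector (EV) and 2 with an Arid1a knockout made by a lentiviral CRISPR vector. The labels give no age for the cell line and no batch for any library, and the same culture and sorting text stands on all 10 samples. The methods describe sequencing of Myc-CaP cells and, separately, of cells sorted from Myc-CaP tumours with or without an NF-kB inhibitor. The genotype labels of these libraries name the line and no treatment. Because the sorting text stands on them too, the labels alone do not settle whether they came from culture or tumours. The methods of the study name 3 mice per genotype for the epithelium. Nothing says that the Myc-CaP libraries came from separate cultures, so p-values there measure only the spread between these libraries, which may be technical.

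Checkpoint ligands are proteins on tumour cells and antigen-presenting cells that bind receptors on T cells. PD-L1 (Cd274) and PD-L2 (Pdcd1lg2) bind PD-1 and restrain T cells, while B7-1 (Cd80) and B7-2 (Cd86) bind both the activating receptor CD28 and the inhibitory receptor CTLA-4. The enzymes act on small molecules: IDO1 breaks down tryptophan, arginase 1 and inducible nitric oxide synthase both use arginine, and CD39 (Entpd1) and CD73 (Nt5e) turn extracellular ATP into adenosine, which dampens T cells. Several of these genes are highly expressed in macrophages, dendritic cells and myeloid-derived suppressor cells as well as in tumour cells.

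The libraries were deep. The epithelium libraries held 28800759 to 36316939 mapped reads, and the Myc-CaP libraries 18431673 to 20697167 reads on genes. The Arid1a transcript checked the labels. It stood at 25.4 ± 3.13 RPKM in epithelium controls and at 30.2 ± 1.23 RPKM in the libraries labelled Arid1a KO (SD, n = 3), which is 0.25 ± 0.09 (SE) on the log2 scale (limma adjusted p = 0.0540). It was thus not reduced there, and since the table gives a single value per gene, loss of an exon could not be seen. In Myc-CaP, Arid1a fell from 60.7 ± 0.36 to 39.9 ± 0.58 TPM (SD, n = 2), with a limma adjusted p of 0.0102.

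Of the 10 genes, 7 rose, 2 fell and 1 did not pass the test in the epithelium. Arg1, Cd80, Pdcd1lg2, Cd274, Nt5e, Cd86 and Entpd1 rose, by 2.01-fold to 8.17-fold as ratios of mean RPKM. Ido1 and Nos2 fell, and Lgals9 did not pass the test. All 10 were tested on log2(RPKM + 1), and a call needed a limma adjusted p under 0.05 over the 16275 genes tested. In that comparison 57.1% of all genes tested were called, 27.5% higher and 29.6% lower. Control and KO values stayed apart for 9 of the 10 genes. For 7 of them every library labelled Arid1a KO lay above every control library, as did 32.4% of all genes, and for 2 it lay below, as did 34.4% of all genes. The 10 genes had a median log2 fold change of 1.24, and all genes tested one of -0.03. By the study's thresholds, an unadjusted p under 0.05 and a 1.5-fold change, 8 of the 10 genes passed, against 24.8% of all genes.

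**Figure D1:**
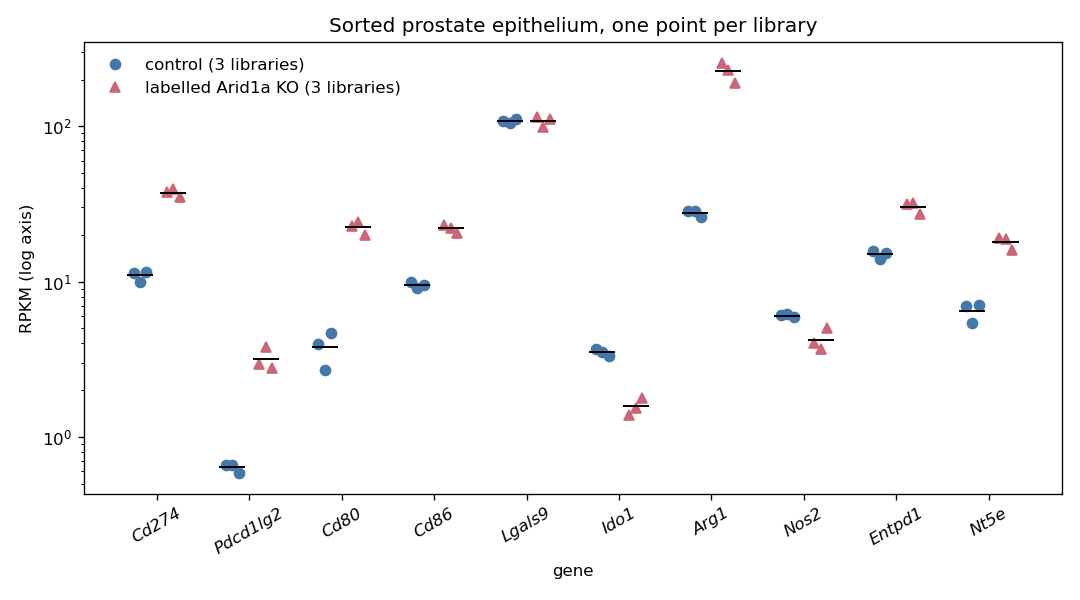
RPKM of each gene in sorted prostate epithelium on a log axis, with 1 point per library (circles, 3 control libraries and triangles, 3 libraries labelled Arid1a KO) and a bar at the mean of the group. The triangles lie above the circles for 7 genes, below them for Ido1 and Nos2, and among them for Lgals9.

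Cd274 encodes PD-L1, the ligand of the inhibitory receptor PD-1 and the target of checkpoint blockade. It measured 11.4, 9.91 and 11.5 RPKM in controls A, B and C, as against 37.6, 39.3 and 35.0 RPKM in the libraries labelled Arid1a KO. Each of the latter lay far above each control. On the log2 scale the difference was 1.68 ± 0.08 (SE, limma adjusted p = 9.80e-06), which ranked 184 among the 7764 positive ones. Pdcd1lg2 encodes PD-L2, the second ligand of PD-1. It was the least abundant of the 10 genes in the controls, at 0.662, 0.661 and 0.582 RPKM, and measured 2.94, 3.76 and 2.78 RPKM in the libraries labelled Arid1a KO. These values rest on 62 to 82 and on 273 to 383 reads per library. The ratio of mean RPKM was 4.98, while the log2 fold change of log2(RPKM + 1) was 1.34 ± 0.11 (SE, limma adjusted p = 7.48e-05), since the added 1 compresses a low gene. Without the added 1, on the recovered reads, it was 2.30.

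Cd274 (chr19:29367455-29388095) and Pdcd1lg2 (chr19:29410919-29471161) are neighbours on the plus strand of GRCm38, separated by 22823 bases. Cd274 stood at 17.3 ± 2.41 times the RPKM of Pdcd1lg2 in controls and at 11.9 ± 1.30 times in the libraries labelled Arid1a KO (SD, n = 3), and the exact two-sided permutation p was 0.1, the smallest that 3 against 3 libraries allow. Jak2, the kinase below the interferon-gamma receptor, lies on the same side of the pair as Plgrkt, and both rose, while Insl6 between them did not pass the test. Jak2 measured 8.02 ± 0.48 and 17.1 ± 1.97 RPKM (SD, n = 3), and Plgrkt 8.49 ± 0.31 and 11.8 ± 0.71 RPKM. On the other side Ric1 rose, from 3.93 ± 0.34 to 8.21 ± 0.80 RPKM, and Ermp1 fell, from 39.3 ± 1.60 to 26.1 ± 5.57 RPKM. The neighbours were taken from within 150000 bases of the pair, a window set after the results had been seen.

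The 250 bases before the RefSeq start sites of these neighbours are shown because they moved together. Capitals mark a match to the NF-kB motif (GGG, a purine, any base, A or T, a pair of pyrimidines, CC), which 4.51% of the 32851 promoter windows in the same table hold on either strand. The windows searched ran from 250 bases before to 50 bases after the start. The bases printed lie at chr19:29367188-29367437 and chr19:29410669-29410918 on the plus strand of GRCm38.p6.
Cd274: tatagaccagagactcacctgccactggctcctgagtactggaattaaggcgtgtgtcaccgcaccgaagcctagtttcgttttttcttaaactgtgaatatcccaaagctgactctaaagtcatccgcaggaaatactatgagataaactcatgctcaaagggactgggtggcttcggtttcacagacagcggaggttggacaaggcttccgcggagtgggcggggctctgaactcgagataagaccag
Pdcd1lg2: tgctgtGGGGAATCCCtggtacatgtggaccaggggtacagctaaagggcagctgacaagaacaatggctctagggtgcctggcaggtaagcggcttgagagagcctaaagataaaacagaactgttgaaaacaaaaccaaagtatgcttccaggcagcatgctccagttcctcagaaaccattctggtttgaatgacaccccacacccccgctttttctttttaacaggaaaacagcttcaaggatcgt
The match in Pdcd1lg2 lies from -244 to -235. No match to the NF-kB motif, the ISRE core (GAAANNGAAA), the GAS motif (TTCNNNGAA) or the AP-1 motif (TGANTCA) was found in the window of Cd274, which says only that these letters are not in it. A match is a description of the sequence and not a binding site.

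Cd80 and Cd86 encode the B7 ligands of CD28 and CTLA-4. Cd80 measured 3.96, 2.68 and 4.66 RPKM in controls and 22.9, 24.0 and 20.0 RPKM in the libraries labelled Arid1a KO. Its log2 fold change of 2.31 ± 0.16 (SE, limma adjusted p = 4.08e-05) was the largest of the 5 checkpoint ligands followed. Cd86 measured 9.89, 9.04 and 9.48 RPKM in controls and 23.3, 22.2 and 20.6 RPKM in the libraries labelled Arid1a KO, with a log2 fold change of 1.14 ± 0.07 (SE, limma adjusted p = 2.80e-05). Neither gene overlapped between the groups. The controls held less Cd80 than Cd86, at 0.396 ± 0.098 of its RPKM, and the libraries labelled Arid1a KO held as much, at 1.01 ± 0.061 (SD, n = 3, exact two-sided permutation p = 0.1). Both lie on chromosome 16, Cd80 at 38455561 to 38496335 on the plus strand and Cd86 at 36603869 to 36666081 on the minus strand. The promoter window of Cd80 held 1 match to the AP-1 motif, from -42 to -36, and 7.81% of all windows hold one.

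Lgals9 encodes galectin-9, a lectin that binds the receptor TIM-3 and other glycoproteins of T cells. It was the most abundant of the 10 genes in the controls, at 107.7, 104.6 and 111.8 RPKM, and measured 115.5, 98.8 and 111.3 RPKM in the libraries labelled Arid1a KO. The groups overlapped, and the difference was 0.00 ± 0.08 (SE) on the log2 scale (limma adjusted p = 0.966). Rescaling all libraries to the same sum put it at 0.18, still not called.

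Arg1 encodes arginase 1, which splits arginine into ornithine and urea and is an established marker of suppressive myeloid cells. It measured 28.3, 28.4 and 25.9 RPKM in controls and 255.8, 230.6 and 189.4 RPKM in the libraries labelled Arid1a KO. This was the largest difference of the 10 genes, a ratio of 8.17 and a log2 fold change of 2.98 ± 0.11 (SE, limma adjusted p = 4.41e-06), which ranked 32 among all positive ones. Arg1 (chr10:24915221-24927484, minus strand) passed Lgals9 to become the most abundant of the 10. Nos2 encodes inducible nitric oxide synthase, which makes nitric oxide from the same amino acid. It measured 6.07, 6.17 and 5.88 RPKM in controls and 4.0, 3.66 and 5.02 RPKM in the libraries labelled Arid1a KO, each of which lay below each control. It fell by 0.44 on the log2 scale (SE 0.10, limma adjusted p = 0.00834), which was under 1.5-fold. Arg1 stood at 4.56 ± 0.14 times the RPKM of Nos2 in controls and at 54.9 ± 14.8 times in the libraries labelled Arid1a KO (SD, n = 3, exact two-sided permutation p = 0.1).

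Ido1 encodes indoleamine 2,3-dioxygenase, the first enzyme of tryptophan breakdown to kynurenine and a gene induced by interferon-gamma. It measured 3.68, 3.51 and 3.31 RPKM in controls and 1.39, 1.54 and 1.78 RPKM in the libraries labelled Arid1a KO. The groups did not overlap, and the values rest on 183 to 226 and on 75 to 91 reads per library. Ido1 (chr8:24584136-24597009, minus strand) fell by 0.81 on the log2 scale (SE 0.09, limma adjusted p = 2.64e-04), to 0.448 of the control mean. In the libraries labelled Arid1a KO it was the least abundant of the 10 genes.

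Entpd1 and Nt5e encode CD39 and CD73, the consecutive ectoenzymes that take ATP to AMP and AMP to adenosine. Entpd1 measured 15.8, 14.0 and 15.2 RPKM in controls and 31.4, 32.1 and 27.0 RPKM in the libraries labelled Arid1a KO, or 0.96 ± 0.08 more on the log2 scale (SE, limma adjusted p = 1.01e-04). Nt5e measured 6.93, 5.42 and 7.05 RPKM in controls and 19.1, 18.9 and 16.0 RPKM in the libraries labelled Arid1a KO, a log2 fold change of 1.35 ± 0.11 (SE, limma adjusted p = 8.29e-05). Both transcripts thus rose without overlap, and enzyme activity was not measured. Entpd1 stood at 2.34 ± 0.22 times the RPKM of Nt5e in controls and at 1.68 ± 0.031 times in the libraries labelled Arid1a KO (SD, n = 3, exact two-sided permutation p = 0.1).

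By level, the controls ran from Lgals9 through Arg1, Entpd1, Cd274 and Cd86 to Nt5e, Nos2, Cd80, Ido1 and Pdcd1lg2. The ranges of Nt5e and Nos2 overlapped, as did those of Cd80 and Ido1. In the libraries labelled Arid1a KO the order was Arg1, Lgals9, Cd274, Entpd1, Cd80, Cd86, Nt5e, Nos2, Pdcd1lg2 and Ido1, with overlap between Cd80 and Cd86 and between Nos2 and Pdcd1lg2. RPKM is scaled by gene length, so these levels can be set side by side.

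Leukocyte transcripts were present in these CD45- libraries, and several of them were higher where 7 of the 10 genes were. Ptprc, which encodes CD45 itself, measured 28.6 ± 2.30 RPKM in controls and 57.3 ± 0.98 RPKM in the libraries labelled Arid1a KO (SD, n = 3). All 10 macrophage markers were called higher, and their summed level was 2333 to 2719 RPKM in controls and 4190 to 4918 RPKM in the libraries labelled Arid1a KO. Of 7 general leukocyte markers 6 were higher and Cd52 was lower, with sums of 804 to 831 and 967 to 1039 RPKM. Of 9 tested neutrophil markers 4 were higher and 1 lower, with sums of 423 to 580 and 767 to 1014 RPKM. Within that sum Ltf alone went from 89.8 ± 12.4 to 401 ± 33.5 RPKM (SD, n = 3). Csf3r rose from 23.1 ± 0.93 to 49.4 ± 6.72 RPKM and Cxcr2 from 7.37 ± 0.19 to 18.3 ± 3.17 RPKM. Ly6g, at 0.409 RPKM in controls and 1.13 RPKM in the libraries labelled Arid1a KO, was also higher and reached the tested level only through the latter. Camp was lower, while S100a8, S100a9, Retnlg and Ngp were not called. Dendritic cell markers summed to 94.3 to 110.4 and 163.9 to 170.2 RPKM, with 3 of 9 higher and 1 lower and a median log2 fold change of -0.03. Itgax went from 23.5 ± 1.59 to 69.4 ± 2.64 RPKM (SD, n = 3), and Ccr7 and Irf8 also rose. Batf3 fell from 12.9 ± 1.04 to 5.93 ± 0.86 RPKM, and Flt3, Zbtb46, Xcr1, Clec9a and Cd209a were not called. B cell markers summed to 144 to 160 and 462 to 811 RPKM, with 5 of 6 higher, and T and NK cell markers to 31.7 to 37.4 and 37.4 to 40.7 RPKM, with 3 of 8 higher and 1 lower. Of the 6 epithelial markers 2 were higher and 2 lower, with sums of 2247 to 2742 and 3117 to 3456 RPKM. Epcam, used in the sort, fell from 304 ± 40.9 to 201 ± 21.5 RPKM and Krt18 also fell, while Krt5 rose from 302 ± 41.8 to 762 ± 76.0 RPKM and Krt14 from 146 ± 30.2 to 799 ± 105 RPKM (SD, n = 3). Endothelial markers summed to 59.2 to 80.1 and 68.7 to 87.8 RPKM, with 1 of 7 higher, and fibroblast markers to 1730 to 2514 and 1435 to 2015 RPKM, with 4 of 7 lower. All 6 seminal vesicle secretory genes were lower, with sums of 18306 to 20707 and 623 to 1573 RPKM. No marker of these lists was at 0 in every library. Fewer cells of a type and less RNA per cell cannot be told apart in such bulk samples.

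To set the genes beside those markers, each was expressed as a share of the summed markers in its own library. Per macrophage marker sum, Arg1 was 4.53 times as high in the libraries labelled Arid1a KO as in controls, Cd80 3.24 times and Pdcd1lg2 2.79 times. Cd274 was 1.88 times, Nt5e 1.53 times and Cd86 1.29 times as high, and none of these genes overlapped. Entpd1 overlapped between the groups on that scale, at a ratio of 1.11. Lyz2, C1qa, C1qb and C1qc were the largest members of that sum, and the ratios depend on them. C1qa went from 604 ± 96.3 to 868 ± 58.0 RPKM and Lyz2 from 772 ± 51.1 to 1884 ± 184 RPKM (SD, n = 3). Among the lower members, Mrc1 went from 30.5 ± 2.86 to 72.9 ± 5.31 RPKM and Mertk from 4.95 ± 0.73 to 23.7 ± 2.73 RPKM. Per neutrophil marker sum, in which Ltf rose the most, Cd86 and Entpd1 overlapped, at ratios of 1.19 and 1.02. Per leukocyte marker sum all 7 genes that rose stayed above the controls without overlap, from 1.65 for Entpd1 to 6.69 for Arg1. Cd52, the largest member of that sum in controls, fell from 344 ± 25.5 to 161 ± 5.20 RPKM (SD, n = 3), which raised these ratios. Ptprc alone went from 28.6 to 57.3 RPKM, and Entpd1 from 15.0 to 30.2 RPKM. Lgals9, Ido1 and Nos2 were lower per macrophage marker sum, at ratios of 0.555, 0.250 and 0.389. The part of such cells in the RPKM values was not tested.

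**Figure D2:**
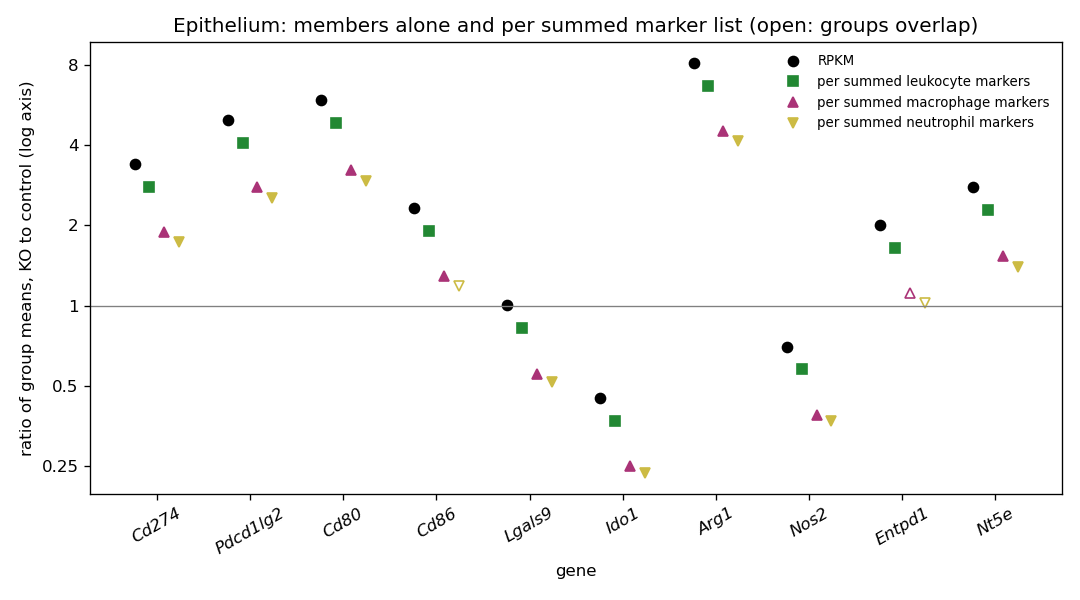
Ratio of the group means, libraries labelled Arid1a KO to controls (log axis), for each gene in RPKM (black circles) and after division by the summed leukocyte, macrophage or neutrophil markers of the same library. Open symbols mark groups that overlap after that division: Entpd1 per macrophage sum and Cd86 and Entpd1 per neutrophil sum. The RPKM of Lgals9 overlapped too.

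In Myc-CaP, 3 of the 10 genes rose with the knockout: Lgals9, Arg1 and Ido1. Nt5e and Cd274 were measured without passing the test, and the other 5 genes (Pdcd1lg2, Cd80, Cd86, Nos2 and Entpd1) stayed under the mean of 0.5 TPM needed to be tested. Of the 13974 genes tested, 6.43% were called, 4.54% higher and 1.89% lower. In all 5 tested genes each knockout library lay above each EV library, as in 24.9% of all genes, and 26.6% of all genes lay the other way. The 5 tested genes, which had passed the filter on their level, had a median log2 fold change of 0.85, and all genes tested one of -0.01. By the study's thresholds 4 of the 5 passed, against 6.28% of all genes. TPM and RPKM were set on separate scales, so levels are compared only within a table.

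**Figure D3:**
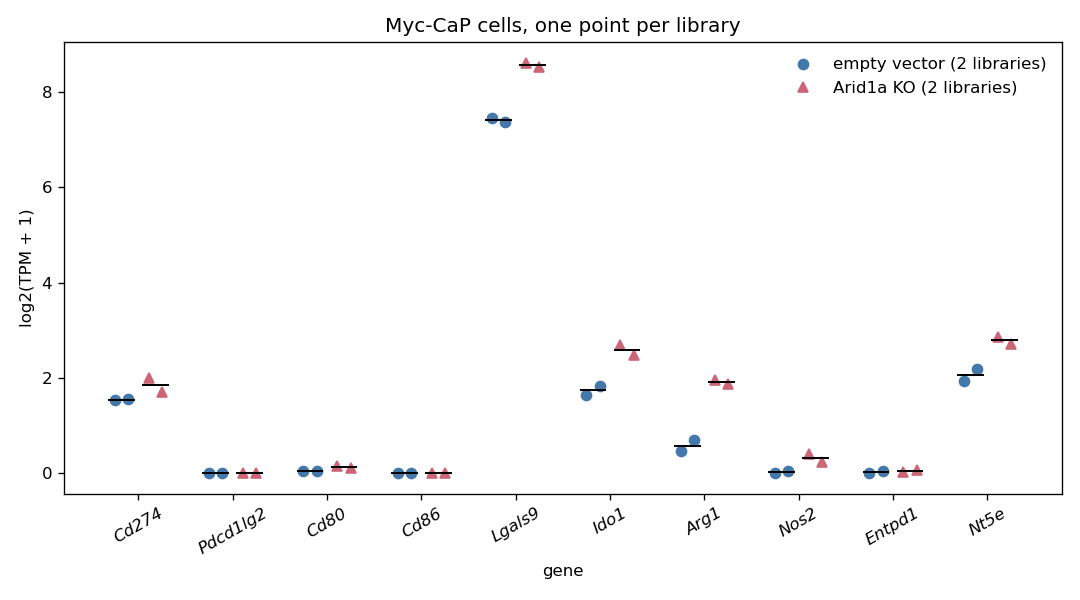
Level of each gene in Myc-CaP cells as log2(TPM + 1), with 1 point per library (circles, 2 EV libraries and triangles, 2 Arid1a KO libraries) and a bar at the mean of the group. Lgals9 stands far above the other 9 genes, and Pdcd1lg2 and Cd86 are at 0 in all libraries.

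By level, the EV libraries ran from Lgals9 through Nt5e, Ido1 and Cd274 to Arg1, with no overlap between neighbours in that order. In the knockout libraries Arg1 and Cd274 overlapped below Ido1. Lgals9 was thus the most abundant of the 10 genes here too. It measured 174.0 and 165.0 TPM in EV libraries 1 and 2 and 389.0 and 364.1 TPM in the knockout libraries, a ratio of 2.22. On the log2 scale this was 1.15 ± 0.06 (SE, limma adjusted p = 0.00262), and the adjusted p became 0.0539 without knockout library 1. At least 2019 reads stood behind each value. Lgals9 (chr11:78962974-78984946, minus strand) faces Nos2 (chr11:78920787-78960254, plus strand) tail to tail across 2719 bases, and the counting was strand-specific according to the methods of the study.

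The bases before the RefSeq start site of Lgals9 (chr11:78984925-78985174, minus strand of GRCm38.p6) are shown because its promoter window held 2 matches to the ISRE core, the interferon-stimulated response element, and none of the other 5 genes of the 10 with a window held any. Capitals mark the match, here on the reverse strand (from -55 to -46). Such a match stands in 3.44% of the 32851 windows.
Lgals9: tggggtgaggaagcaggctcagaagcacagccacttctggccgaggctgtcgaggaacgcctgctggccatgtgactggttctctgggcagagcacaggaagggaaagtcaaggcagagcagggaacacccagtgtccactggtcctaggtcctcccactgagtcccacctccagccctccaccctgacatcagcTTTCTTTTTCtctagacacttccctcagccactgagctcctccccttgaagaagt
The second match, from 16 to 25 after the start, is given with 10 bases on each side (chr11:78984890-78984919).
Lgals9 after the start: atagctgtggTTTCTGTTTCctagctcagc
No window was matched for Ido1, Cd86, Arg1 and Nos2.

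Arg1 was low in these cells. It measured 0.386 and 0.614 TPM in the EV libraries and 2.87 and 2.67 TPM in the knockout libraries, from 5 and 7 reads against 35 and 30. The log2 fold change of log2(TPM + 1) was 1.33 ± 0.18 (SE, limma adjusted p = 0.0235), and on the recovered reads it was 2.42. The ratio of reads per library total was 5.61, with a 95% exact interval of 3.00 to 11.4 that covers counting error only. With any 1 library left out the adjusted p of Arg1 lay between 0.110 and 0.158.

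Ido1 measured 2.12 and 2.56 TPM in the EV libraries and 5.47 and 4.60 TPM in the knockout libraries, from 33 and 35 reads against 80 and 62. It rose by 0.85 ± 0.15 on the log2 scale (SE, limma adjusted p = 0.0461), close to the threshold. The adjusted p was 0.166 to 0.235 with any 1 library left out, and 0.163 with no filter on low values. Nt5e measured 2.80 and 3.58 TPM with EV and 6.22 and 5.58 TPM in the knockout, or 0.72 ± 0.15 more on the log2 scale (SE, limma adjusted p = 0.0641). With the replicate number as a block the adjusted p of Nt5e was 0.0335, and on the recovered reads it was 0.0141. Cd274 measured 1.91 and 1.92 TPM with EV and 2.99 and 2.28 TPM in the knockout. The difference of 0.31 ± 0.17 on the log2 scale (SE, limma adjusted p = 0.377) rests on 61 and 54 reads against 90 and 63.

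The untested genes were read at the level of single reads. Nos2 had 0 and 1 read in the EV libraries and 12 and 6 in the knockout libraries, a ratio of 18.6 per library total with a 95% exact interval of 2.94 to 777. Cd80 had 1 and 1 read with EV and 3 and 2 in the knockout, a ratio of 2.59 with an interval of 0.424 to 27.2, so no difference was detectable at this depth. Entpd1 had 0 and 1 read with EV and 1 and 2 in the knockout. Pdcd1lg2 and Cd86 had 0 reads in all 4 libraries, which allows a level of up to 0.10 to 0.117 TPM, the worth of 3 reads. These intervals cover counting error only.

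Most leukocyte markers were at or near 0 in Myc-CaP. The 7 general leukocyte markers summed to 4.66 to 5.52 TPM with EV and 4.0 to 4.10 TPM in the knockout, of which Cd52 made up 3.87 to 5.44 and 3.14 to 3.37 TPM. Ptprc was 0 and 0.044 TPM with EV and 0 in both knockout libraries, and Flt3, S100a8, Ly6g and Cd3e were 0 in all 4. Macrophage markers summed to 9.29 to 12.1 TPM with EV and 11.7 to 13.6 TPM in the knockout, with Mertk alone at 8.42 to 9.03 and 10.03 to 10.95 TPM and C1qa and C1qc at 0, and the neutrophil markers to at most 0.435 TPM. The epithelial markers that define the labelled cell type were also nearly absent from the EV libraries. Epcam was 0 there and at most 0.128 TPM in the knockout. The 6 epithelial markers summed to 1.30 to 1.36 TPM with EV and to 41.5 to 48.0 TPM in the knockout. Krt8 alone made up 38.8 to 40.3 TPM of the knockout sum. Krt18 and Cdh1 reached at most 0.658 and 0.386 TPM there, and Krt5 and Krt14 ranged from 0 to 1.98 and from 0.774 to 6.04 TPM.

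Set side by side, Arg1 was called higher in both tables, with log2 fold changes of 2.98 in the epithelium and 1.33 in Myc-CaP. Nt5e was positive in both, at 1.35 and 0.72, and was called in the epithelium only. Lgals9 was called in Myc-CaP and not in the epithelium, at 1.15 and 0.00. Ido1 went opposite ways, at -0.81 in the epithelium and 0.85 in Myc-CaP. Cd274 was called in the epithelium and not in Myc-CaP, at 1.68 and 0.31. No difference between the tables was tested, because they were normalised separately and hold different units. The ratio of Lgals9 to Cd274 was 9.89 ± 0.59 in the epithelium controls and 2.92 ± 0.36 in the libraries labelled Arid1a KO (SD, n = 3, exact two-sided permutation p = 0.1), while in Myc-CaP it was 88.4 ± 3.73 and 145 ± 21.2 (SD, n = 2, exact two-sided permutation p = 0.333, the smallest that 2 against 2 allow).

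**Figure D4:**
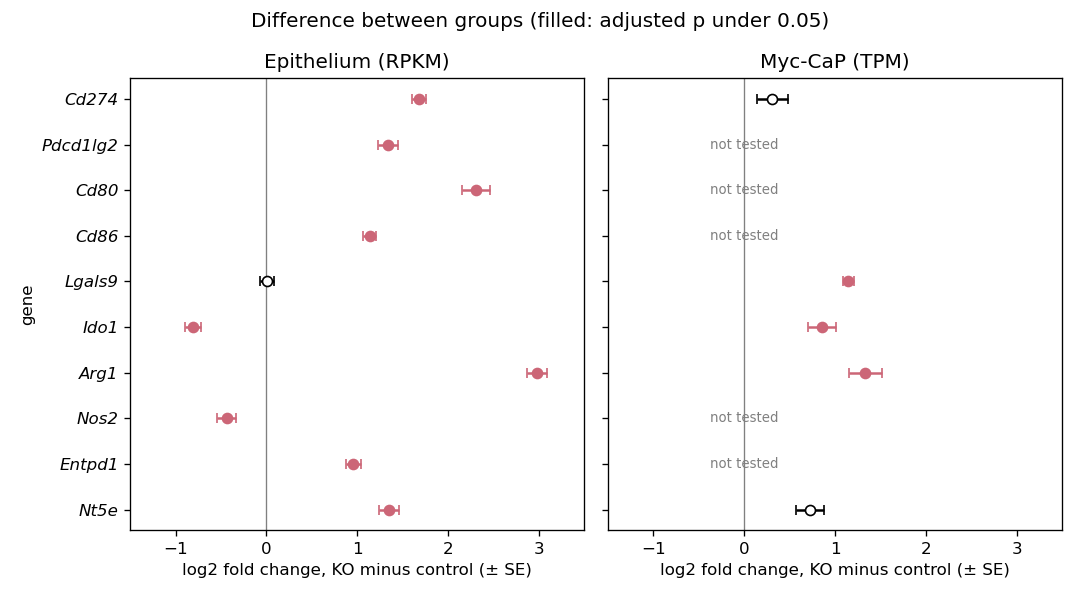
Log2 fold change of each gene, knockout minus control, with its standard error, in the epithelium (log2(RPKM + 1)) and in Myc-CaP (log2(TPM + 1)), and filled symbols for a limma adjusted p under 0.05. In the epithelium 9 genes are filled, and in Myc-CaP 3 are filled and 5 were not tested.

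The receptors and companion ligands of the same pathways were counted from lists compiled by function. Their counts stand against 57.1% of all genes called in the epithelium, 27.5% higher and 29.6% lower, and 6.43% in Myc-CaP. With any 1 Myc-CaP library left out, 1 galectin gene was called there and 0 genes of the other 5 lists. Of 30 other checkpoint ligands and receptors tested in the epithelium, 16 were higher, 6 lower and 8 not called, and the median of their log2 fold changes was 0.32. Some receptors of the ligands above were among the largest rises. Ctla4, which binds Cd80 and Cd86, measured 4.52 ± 1.05 and 15.1 ± 1.37 RPKM, and Pdcd1, the receptor of Cd274 and Pdcd1lg2, 3.17 ± 0.17 and 10.3 ± 0.68 RPKM (SD, n = 3). Cd28, the activating receptor of Cd80 and Cd86, rose by 0.53 on the log2 scale, and Havcr2, which encodes TIM-3, by 1.19. Tigit, another inhibitory T cell receptor, rose by 1.21 on the log2 scale. Fgl1, a ligand of the receptor LAG-3, fell by 1.41, and Cd24a and Cd200, which restrain myeloid cells, fell by 0.95 each. Over the 8 T and NK cell markers the median log2 fold change was 0.03. Cd3e was higher, at 4.27 ± 0.70 and 6.19 ± 0.19 RPKM (SD, n = 3). So was Cd4, at 3.59 ± 0.07 and 7.22 ± 0.83 RPKM, and Cd2 rose by 0.66 on the log2 scale. Cd3d, Cd3g, Cd8a and Gzma were not called, and Nkg7 fell by 1.13. In Myc-CaP, of 14 tested, Cd47 rose by 0.64 and Cd24a fell by 0.62.

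Among 7 other galectins and Lgals3bp, the galectin-3 binding protein, in the epithelium 5 were higher and 1 lower, with a median of 0.40. Lgals3 measured 202 ± 20.2 and 405 ± 19.1 RPKM (SD, n = 3). Lgals2 and Lgals12 rose by 0.93 each, and Lgals1 fell by 0.41, a call lost under quantile normalization, with rescaling to the same sum and with the trend on gene length removed. In Myc-CaP 2 of 5 were higher, Lgals3bp by 1.87 and Lgals3 by 0.63.

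Of 12 other genes of arginine and nitric oxide metabolism tested in the epithelium, 7 were higher and 4 lower, with a median of 0.26. Slc7a2, an arginine transporter, measured 1.06 ± 0.14 and 6.23 ± 0.54 RPKM, and Odc1, which takes the ornithine made by arginase into polyamines, 40.0 ± 0.63 and 131 ± 16.0 RPKM (SD, n = 3). Ddah1 rose by 0.99 while its homologue Ddah2 fell by 1.07, and Oat and Asl fell by 0.74 and 0.39. In Myc-CaP 2 of 8 were higher, Cps1 by 1.72 and the arginine transporter Slc7a1 by 0.28. Cps1 measured 0.188 TPM with EV and reached the tested level only through the knockout libraries. The call of Slc7a1 was lost under quantile normalization and with the trend on gene length removed.

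Tryptophan and kynurenine genes were mixed in the epithelium, with 3 of 11 higher and 4 lower and a median of -0.09, which was 0.03 with rescaling to the same sum. Wars, which charges tryptophan to its tRNA, measured 66.4 ± 2.28 and 32.2 ± 4.12 RPKM (SD, n = 3), lower like Ido1. Kyat3 and Kyat1 fell by 0.59 and 0.38. Ahr, a receptor that kynurenine binds, rose by 0.95, and Kynu and Kmo, which process kynurenine, by 0.67 and 0.54. Kynu, at 0.416 RPKM in controls, reached the tested level only through the libraries labelled Arid1a KO. With rescaling to the same sum 2 genes were lower in place of 4, and Kyat1 lost its call. In Myc-CaP 1 of 6 was called, Kyat1, which fell by 0.88.

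The adenosine genes of the epithelium also moved both ways, with 6 of 20 higher and 7 lower and a median of -0.01, which was 0.15 with rescaling to the same sum. Cd38, an ectoenzyme that breaks down NAD, measured 6.26 ± 0.24 and 20.0 ± 1.18 RPKM, while Entpd2, a relative of Entpd1, measured 71.3 ± 5.03 and 19.6 ± 1.83 RPKM (SD, n = 3). The adenosine receptors Adora2b and Adora2a rose by 0.95 and 0.94, and Adora1, which reached the tested level only through the controls, fell by 1.33. Alpl, a phosphatase that also makes adenosine, fell by 1.82. In Myc-CaP 2 of 7 were higher, Entpd3 by 0.79 and the nucleoside transporter Slc29a1 by 0.40, a call lost with the trend on gene length removed.

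Of 23 regulators of PD-L1 and IDO1 in the epithelium, 13 were higher and 4 lower, with a median of 0.27. Hif1a, the hypoxia-inducible factor, measured 23 ± 2.05 and 72.1 ± 4.27 RPKM (SD, n = 3). Ifng itself, the cytokine that induces both Cd274 and Ido1, measured 1.11 ± 0.35 and 0.176 ± 0.041 RPKM (SD, n = 3), and Bin1 and Myc fell by 0.64 and 0.38. Ifng reached the tested level only through the controls. With rescaling to the same sum 2 genes of the list were lower in place of 4, and Myc lost its call there and with the trend on gene length removed. In Myc-CaP 4 of 22 were higher and 1 lower. Stat2, which relays interferon signals, rose by 0.98 and Jak2 by 0.88, and Bin1 fell by 0.58.

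**Figure D5:**
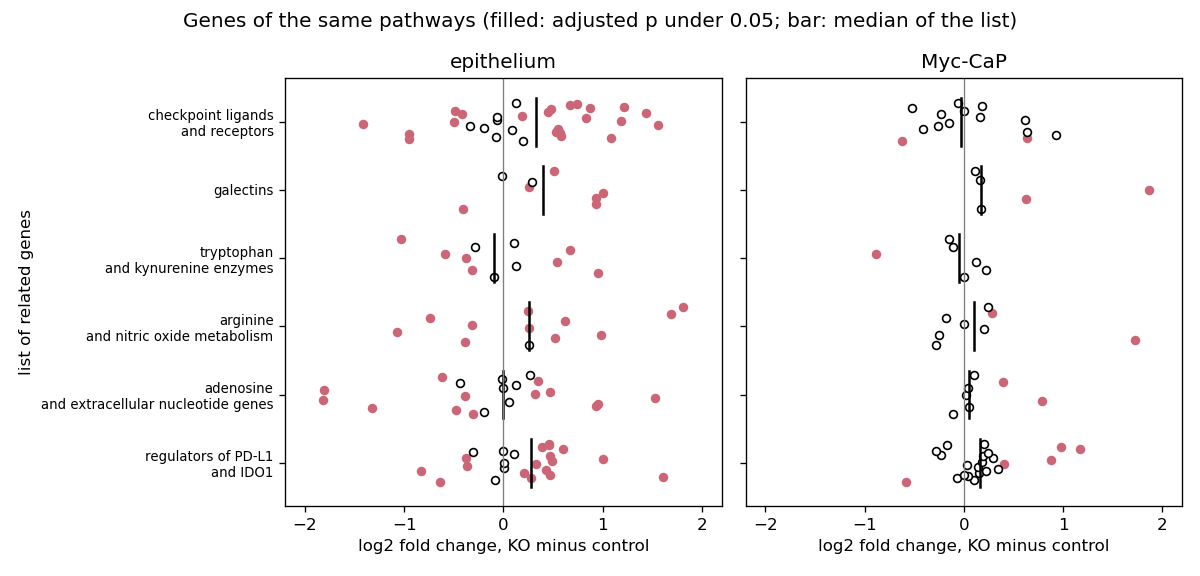
Log2 fold change, knockout minus control, of each tested gene in 6 lists of related genes, in the epithelium and in Myc-CaP, with filled points for a limma adjusted p under 0.05 and a bar at the median of the list. In the epithelium every list has genes on both sides of 0, and the median of the adenosine list is -0.01.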

How the data were processed

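RNA-seq was analysed in 10 mouse libraries in 4 groups, taken from the genotype field of the labels. The authors aligned reads to GRCm38 and counted them per gene with HTSeq-count (the methods name TopHat2, the submitters' processing notes HISAT2). The authors deposited RPKM values for the epithelium (reads scaled by gene length and mapped reads) and TPM values for Myc-CaP (scaled by gene length, then to the same sum), in 48897 rows each. The deposited units are not counts, so values were tested as log2(value + 1) with limma 3.58.1 (lmFit, eBayes with trend) in R 4.3.3, for genes with a mean of at least 0.5, each table alone. P-values are two-sided, with Benjamini-Hochberg adjustment across the genes tested in a table and calls under 0.05. Log2 fold changes are on that scale, which understates low genes. Values per marker list are ratios of RPKM.

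Every value above 0 was a whole multiple of what 1 read is worth (100% of genes, within 0.01 reads), so reads per gene were recovered. The length of each gene was searched so as to give whole reads, so that share carries little weight for genes with reads in few libraries. One gene length served both tables for 99.3% of 12123 genes, with the epithelium length tried first in Myc-CaP. Limma with voom weights on those reads was an alternative added after seeing the data. The scripts were tested on simulated data. The 10 genes were chosen, and the lists of related genes and markers written, with earlier results of these data known. The text names all 10 genes, Arid1a, up to 3 called genes per list and direction, a fixed set of markers and further markers added after the results were seen. Neighbours on the chromosome were named as well. List counts include every gene tested, although some single items are not reported here. Promoter sequences came from RefSeq on GRCm38.p6, which held 6 of the 10 genes, and gene positions from GENCODE M21. Same-numbered libraries were not taken as pairs: the correlations of their deviations were 0.041, 0.009 and -0.057 in the epithelium, and Myc-CaP has only 2 numbers.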

Additional observations from a re-analysis of the deposited data

Results flagged for a closer look

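Ido1 moved in opposite directions in the 2 systems. Its log2 fold change was -0.81 in the epithelium, where every library labelled Arid1a KO lay below every control, and 0.85 in Myc-CaP, where both knockout libraries lay above both EV libraries. Nos2 had values of opposite sign, at -0.44 in the epithelium and 0.30 in Myc-CaP. The latter came from the fit with no filter on low values, did not pass the test (limma adjusted p = 0.228) and rests on 1 read with EV and 18 in the knockout. Arid1a itself was at 0.25 in the epithelium and at -0.59 in Myc-CaP. The difference between the systems was not tested for any of these genes, because the tables were normalised separately.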

How the results depend on the processing

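In the epithelium the same 9 genes were called under each alternative that tested them, and a minimum mean of 5 left 8 of the 10 to test, of which 7 were called. That minimum took the count over all genes from 9294 to 5872 of 9027 tested. With libraries rescaled to the same sum, all genes had a median log2 fold change of 0.11 in place of -0.03, and 64.9% of calls were higher in place of 48.1%, with no change in the calls of the 10 genes. Leaving out 1 library gave 7768 to 8819 calls over all genes and 9 of the 10 genes each time. In Myc-CaP the calls were less stable. The minimum mean of 5 does not show this, since it left only 1 of the 10 genes to test, which was called. Over all genes that minimum gave 934 calls of 9697 tested. Of the 10 genes, 1 was called with no filter on low values and 1 with a minimum mean of 5, and 0 to 1 with any 1 library left out. Over all genes, 899 calls became 358 with no filter, 451 with no trend in the variance, 47 to 76 with any 1 library left out and 1566 on the recovered reads. With a replicate block, 2771 genes were called in Myc-CaP and 4 of the 10, and in the epithelium 8823 and 9. Same-numbered libraries share only a number, and the cause of these shifts was not tested. The higher share of Myc-CaP calls was 70.6%, 60.6% with the length trend removed and 61.4% on the recovered reads. Arid1a in the epithelium passed the threshold under 6 alternatives, with adjusted p as low as 0.0130. Depth limits the 5 untested genes in Myc-CaP, where 1 read decides a value. With 2 libraries a group, a lone library was assumed to vary like the others.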
